A study of Mus musculus with 4 samples.

Results

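The genes described here are 37 transcripts of glucose breakdown and of the response to low oxygen: glucose transporters, glycolytic enzymes, lactate enzymes and transporters, pyruvate dehydrogenase kinases, oxygen-sensing factors and genes that hypoxia induces. They were chosen by symbol, and all 37 were found among the 23107 genes of the deposited tables. Glycolysis cuts glucose into pyruvate in the cytosol. Lactate dehydrogenase then turns pyruvate into lactate, or pyruvate dehydrogenase feeds it to the mitochondrion, a step that the pyruvate dehydrogenase kinases hold back. Under low oxygen, hypoxia-inducible factor (HIF) escapes hydroxylation by the Egln prolyl hydroxylases and switches on many glycolytic genes, along with genes for blood vessel growth, pH balance and mitophagy.

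Cells came from the dental follicle, the mesenchymal sheath of a developing tooth, of mouse mandibular molars at postnatal day 8. Conditional knockouts of Ptch1 (cKO, labelled Ptch1(-/-), n = 2 libraries) were compared with conditional heterozygotes (cHet, labelled Ptch1(+/-), n = 2 libraries). Both groups were given tamoxifen at postnatal day 3, and in both the sorted cells were tdTomato-positive, which the labels equate with PTHrP-expressing follicle cells. The cHet controls carry the loss of 1 allele too. The labels name neither the Cre driver nor whether cells of several animals were pooled, and with tamoxifen given before collection a sorted cell need not still have expressed PTHrP. Ptch1 encodes the hedgehog receptor that keeps the pathway off without ligand, and the comparison asks how transcripts differ when both copies are targeted instead of 1.

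Libraries are called cKO_0, cKO_1, cHet_0 and cHet_1 as in the table columns, and values are scaled counts, which are gene counts after a factor per library applied by the authors. Scaled totals lay between 69361760 and 71228342, and the smallest step between low values implied 62300000 to 85700000 reads per library. The libraries differed within groups: across genes, log values of cKO_0 correlated at 0.811 with cKO_1 and 0.893 with cHet_0, and cHet_1 reached only 0.742 to 0.791 with the others. A total of 799 genes (5.59% of 14297 tested) were below 20 scaled counts in cHet_1 with at least 200 in each other library, against 32, 29 and 4 genes under the same rule in cKO_0, cKO_1 and cHet_0. Ptch1 itself (chr13:63508328-63573598, minus strand) had 22420 and 23340 scaled counts in cKO_0 and cKO_1, against 12870 and 5438 in cHet_0 and cHet_1 (limma adjusted p = 0.913). The sources used here do not name the exons removed, and this gene-level count does not check the deletion. Of the 10 dental follicle and ligament markers, none was at 0 in any library. Together they made up 6.44% and 6.10% of scaled counts in the cKO libraries, against 8.80% and 9.51% in the cHet libraries. Col1a1 and Col3a1 made up most of this sum. Col1a1 had 2122200 and 2099810 scaled counts in cKO_0 and cKO_1, against 3673200 and 3370910 in cHet_0 and cHet_1. Col3a1 overlapped, at 2142840 and 2004620 in cKO and 2057080 and 2879290 in cHet. Both cKO libraries were below both cHet libraries for 6 of the 10 markers (background 14.2%).

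No member passed the test across all genes, and the summed level of the set overlapped between groups. Together the 37 genes took 0.300% and 0.393% of scaled counts in cKO_0 and cKO_1, against 0.351% and 0.298% in cHet_0 and cHet_1. A filter of at least 10 scaled counts in at least 2 libraries kept 36 of the 37, all but Ankrd37. Across all genes limma called 0 of 14297 (0%) at an adjusted p below 0.05, with a lowest adjusted p of 0.913, and 220 genes higher and 213 lower in cKO had an unadjusted p below 0.05. Among the 36 tested members 1 had an unadjusted p below 0.05 on the higher side, against 1.54% of all genes, and 1 on the lower side, against 1.49% of all genes. Both cKO libraries lay above both cHet libraries for 8 of the 36 (22.2%, background 18%) and below them for 5 (13.9%, background 14.2%), and the other 23 overlapped. In FPKM, a unit relative to transcript length, 6 lay above (background 11.5%) and 3 below (background 8.73%).

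The direction of the small differences depended on the scaling. Fold changes are differences of mean log2(scaled count + 3) between cKO and cHet, positive where cKO is higher. They were above 0 for 24 of the 36 (66.7%, background 56.3%), but for 18 of 36 after either median-of-ratios or trimmed-mean (TMM) rescaling. The median fold change of all genes was 0.12 as deposited and 0.02 after median-of-ratios rescaling. Relative to it, the members' median was -0.04 as deposited, -0.02 with median-of-ratios and -0.03 with TMM, but 0.05 on log2(FPKM + 1), 0.42 without cKO_0, -0.18 without cKO_1 and 0.13 without cHet_1. Single genes ranged from -0.91 for Ndrg1 to 3.65 for Slc2a3, with a median standard error of 0.48. In the fit of log2(scaled count + 3) over all 4 libraries, which the values below come from unless stated, every limma adjusted p was at least 0.913, and ± stands for the limma standard error of a log2 fold change. The difference between group means exceeded the gap within each group for 6 of 36 members (16.7%, background 16.3%).

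**Figure D1:**
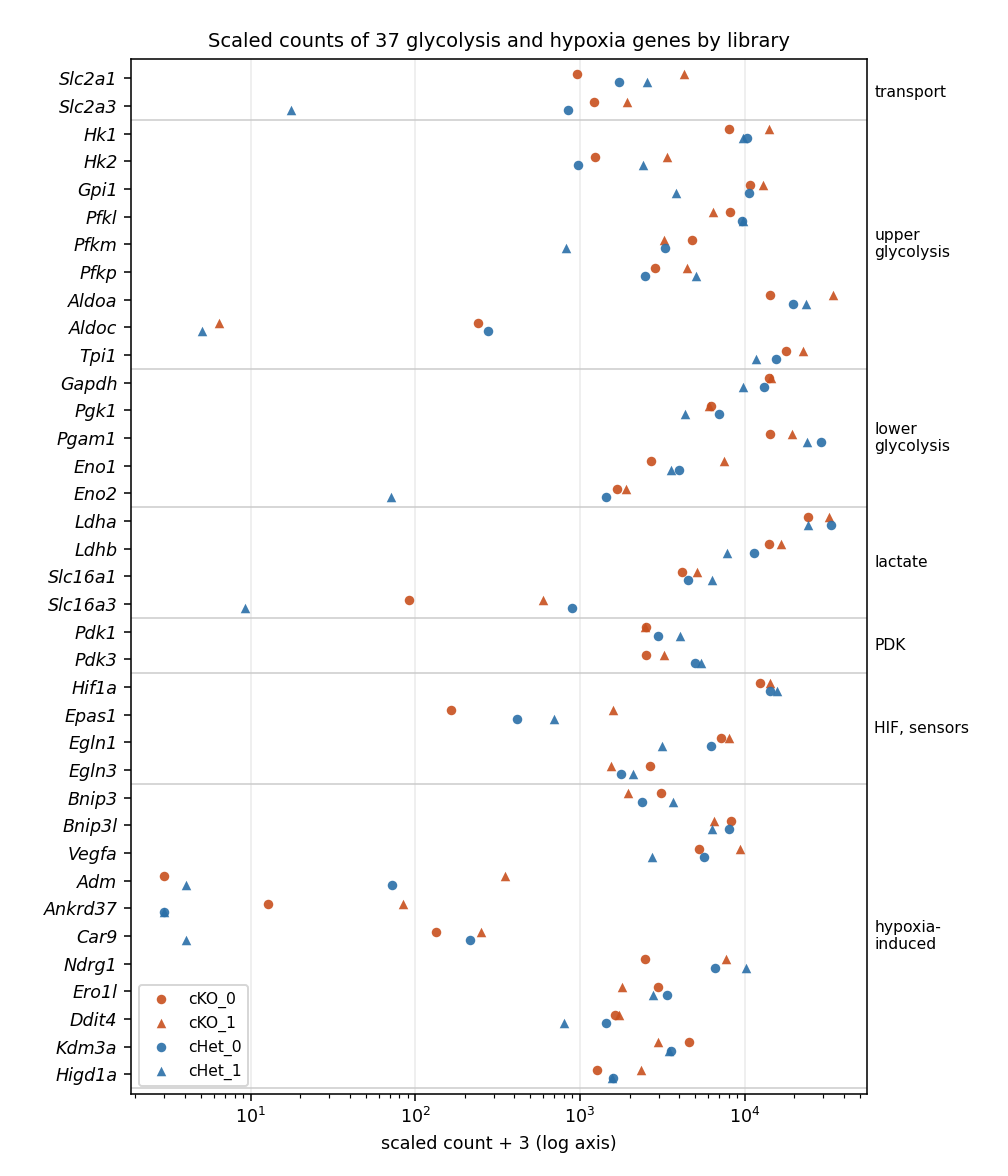
Scaled count + 3 (log axis) of each of the 37 genes in each library, cKO in orange and cHet in blue, circles for the libraries numbered 0 and triangles for those numbered 1, ordered by role. The groups interleave for 23 genes, and the low triangle of cHet_1 stands apart for Slc2a3 at 14.65 and Eno2 at 68.02 scaled counts.

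**Figure D2:**
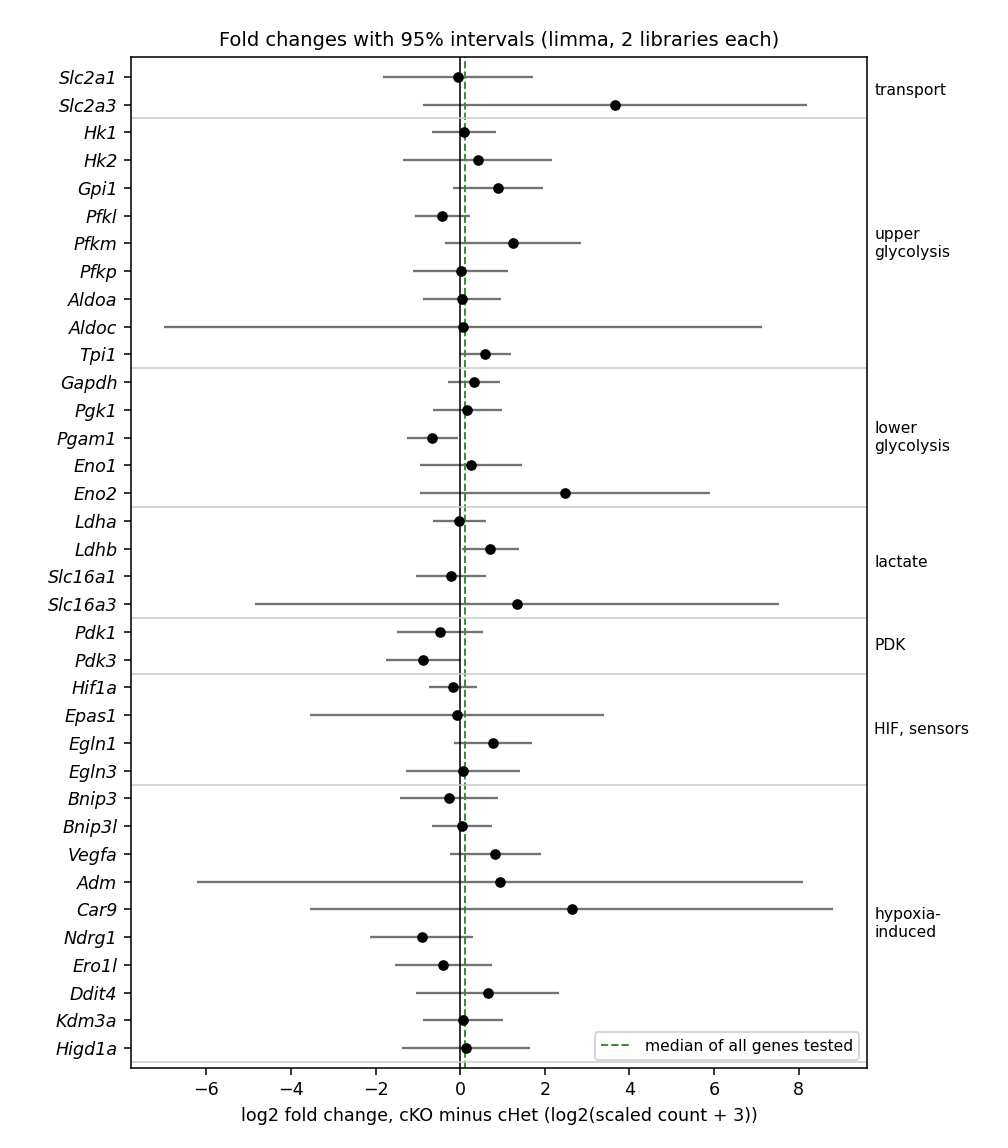
Points give the log2 fold change, cKO minus cHet, of the 36 tested genes and lines the 95% interval of the limma fit over 2 libraries in each group; the dashed line marks the median of all genes, 0.12. Only the intervals of Ldhb and Pgam1 leave out 0, before any adjustment for the number of genes.

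Lactate dehydrogenase is the enzyme between pyruvate and lactate. The share of its transcripts from Ldha, 1 of several isozyme shares taken, was lower in each cKO library than in either cHet library. Neither of its genes passed the test. Its A subunit, encoded by Ldha, favours lactate formation and is a classical HIF target. The B subunit, encoded by Ldhb, favours the reverse step. Promoters of both genes are shown because of this share, and those of Pgam1 and Pdk3 because they were the member of lowest p on the lower side and the member of largest fold change among those with both cKO libraries below both cHet libraries. Each is the 250 bases before a RefSeq start site (GRCm38.p6, the assembly of mm10), read 5′ to 3′ on the gene's strand. Capitals mark ACGTG or its reverse complement CACGT, 1 of the 2 forms of the core HIF recognition sequence. The 6-base palindrome CACGTG holds both and is also the E-box of other factors.
Ldha, chr7:46845554-46845803, plus strand: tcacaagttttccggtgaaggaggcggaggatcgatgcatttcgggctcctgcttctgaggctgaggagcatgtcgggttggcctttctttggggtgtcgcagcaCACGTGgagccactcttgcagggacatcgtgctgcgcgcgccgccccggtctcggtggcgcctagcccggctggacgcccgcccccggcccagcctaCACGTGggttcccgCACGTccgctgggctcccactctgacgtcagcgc
Ldhb, chr6:142507958-142508207, minus strand: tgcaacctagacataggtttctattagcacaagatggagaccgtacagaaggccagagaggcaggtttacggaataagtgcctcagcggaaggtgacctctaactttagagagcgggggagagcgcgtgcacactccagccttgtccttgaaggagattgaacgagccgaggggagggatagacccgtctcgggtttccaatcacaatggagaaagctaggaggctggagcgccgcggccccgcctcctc
Pgam1, chr19:41911621-41911870, plus strand: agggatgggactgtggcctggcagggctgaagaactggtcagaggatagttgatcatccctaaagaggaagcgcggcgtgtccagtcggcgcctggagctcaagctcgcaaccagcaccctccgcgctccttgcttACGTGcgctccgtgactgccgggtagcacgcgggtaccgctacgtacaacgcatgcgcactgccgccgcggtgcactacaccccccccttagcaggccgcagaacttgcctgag
Pdk3, chrX:93832151-93832400, minus strand: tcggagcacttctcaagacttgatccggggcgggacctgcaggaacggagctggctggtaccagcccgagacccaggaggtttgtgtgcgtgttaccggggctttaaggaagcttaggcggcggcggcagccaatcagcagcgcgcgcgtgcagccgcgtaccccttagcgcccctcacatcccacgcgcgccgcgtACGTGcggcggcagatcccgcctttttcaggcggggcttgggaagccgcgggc
The Ldha window held 3 separate runs in capitals, beginning 145, 48 and 34 bases before the start site, and the Ldhb window held 0 of them and 1 of the other core form, GCGTG. Another RefSeq window of Ldha, not shown, held 0 runs. The Pgam1 and Pdk3 windows held 1 run each, 114 and 53 bases before the start. RefSeq had a window for 33 of the 37 genes (Ero1l under its symbol Ero1a), leaving out Bnip3l, Epas1, Ndrg1 and Slc2a3. ACGTG on either strand was in a window of 19 of these 33 genes (57.6%), against 18.5% of 27025 genes with such windows. GCGTG, searched on both strands in the same way, was in 23 of 33 (69.7%), against 30.9%. The median fold change was 0.06 over the 18 tested genes with ACGTG and 0.19 over the 14 without it, beside 0.12 for all genes. The set was chosen partly for genes that hypoxia induces, and the 27025 genes were not matched to it for expression or base composition. A match of letters is a description of the window and not a binding site.

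Ldhb (chr6:142490249-142507957, minus strand) had 14150 and 16730 scaled counts in cKO_0 and cKO_1, against 11340 and 7789 in cHet_0 and cHet_1. Both cKO libraries exceeded both cHet libraries, and the gap between the closest of them was smaller than that between the cHet libraries. The log2 fold change was 0.71 ± 0.29 (SE, 95% interval 0.05 to 1.38; limma adjusted p = 0.913). Without cHet_1 it was 0.44. Ldha (chr7:46841475-46855627, plus strand) had 24310 and 32350 scaled counts in cKO_0 and cKO_1, against 33300 and 24350 in cHet_0 and cHet_1, so that each group held 1 high and 1 low library. Its fold change was -0.02 ± 0.27 (95% interval -0.64 to 0.60). Ldha was the most abundant lactate gene per length, at 228.5 and 276.1 FPKM in cKO_0 and cKO_1 and 312.3 and 196.9 FPKM in cHet_0 and cHet_1.

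Within each library the balance of the isozymes does not depend on the scaling between libraries. Ldha made up 57.8% and 57.4% of the summed Ldha and Ldhb FPKM in cKO_0 and cKO_1, against 70.2% and 68.3% in cHet_0 and cHet_1. The mean difference was -11.6 percentage points, and the libraries of a group lay within a few points of each other (exact permutation test, two-sided p = 0.333, the smallest that 2 against 2 libraries allow). From scaled counts the shares were 63.2% and 65.9% in cKO, against 74.6% and 75.8% in cHet, a difference of -10.6 points. Shares were also taken within hexokinases, phosphofructokinases, aldolases, enolases, both transporter pairs, Pdk1 with Pdk3 and Hif1a with Epas1. By FPKM only those of Ldha, Pfkl and Pfkm did not overlap between groups, and by scaled counts that of Pdk1 did not either. Libraries in random order would separate a share with a probability of 0.333. As a background for single genes, the groups did not overlap in scaled counts for 32.2% of all tested genes. In Ldhb, 27.0% of the 50-base stretches of its transcripts also occur in transcripts of another gene, and in Ldha 16.6%, so part of these reads could be assigned to copies. The 2 monocarboxylate transporters that export lactate overlapped between groups: Slc16a1 had 4149 and 5147 scaled counts in cKO and 4496 and 6353 in cHet. Slc16a3, the form usually linked to high glycolysis, had 88.34 and 593.5 in cKO_0 and cKO_1, against 898 and 6.279 in cHet_0 and cHet_1, the last resting on 6 reads.

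**Figure D3:**
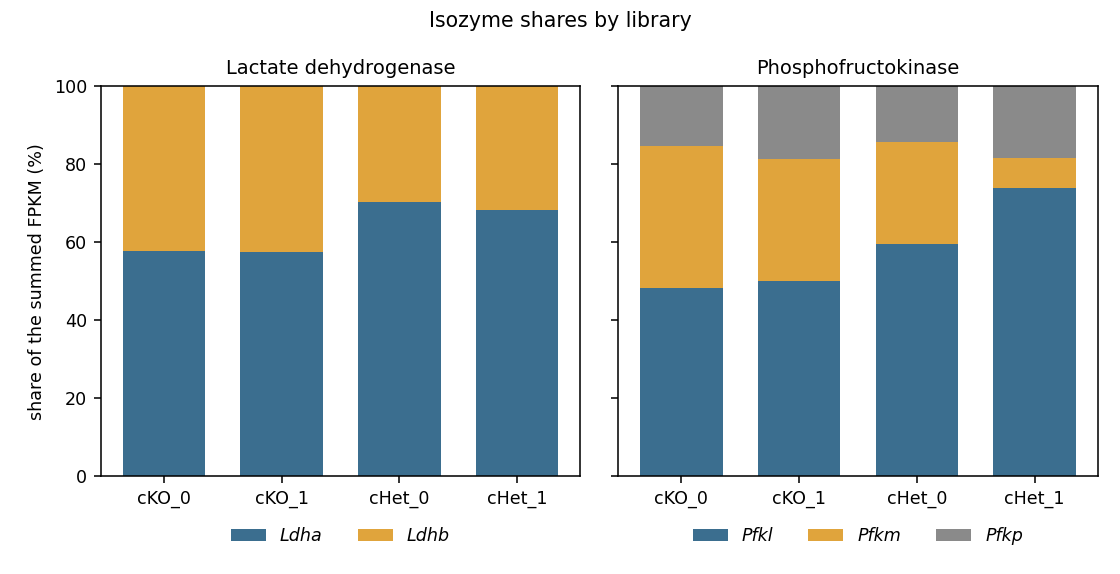
Stacked bars give each isozyme's share (percent) of the summed FPKM of its family in each library, lactate dehydrogenase on the left and phosphofructokinase on the right. The Ldha share is 57.8% and 57.4% in cKO, against 70.2% and 68.3% in cHet, and the Pfkm share is 36.4% and 31.3% in cKO, against 26.2% and 7.67% in cHet.

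Among the 9 genes of upper glycolysis, from hexokinase to triose phosphate isomerase, 8 fold changes were above 0 as deposited and 5 after median-of-ratios or TMM rescaling, and 0 passed the test. Tpi1, which interconverts the triose phosphates, had 17840 and 22690 scaled counts in cKO_0 and cKO_1, against 15460 and 11760 in cHet_0 and cHet_1. Both cKO libraries were above both cHet libraries, by a fold change of 0.58 ± 0.27 (95% interval -0.04 to 1.2), and 0.38 without cHet_1. Gpi1, glucose-6-phosphate isomerase, had 10800 and 12860 in cKO, against 10610 and 3811 in cHet. Its cHet_0 value nearly met cKO_0, and the fold change of 0.89 ± 0.46 (95% interval -0.17 to 1.95) came to 0.15 without cHet_1. A share of 19.3% of Gpi1 50-base stretches recurs in other genes' transcripts.

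Phosphofructokinase commits glucose to the pathway and has liver (Pfkl), muscle (Pfkm) and platelet (Pfkp) forms. Pfkl had 8171 and 6444 scaled counts in cKO_0 and cKO_1, against 9634 and 9831 in cHet_0 and cHet_1. Both cKO libraries were lower, with a fold change of -0.42 ± 0.29 (95% interval -1.08 to 0.24), and -0.25 without cKO_1. Pfkm had 4758 and 3231 in cKO, against 3269 and 824.6 in cHet, where the 2 groups touch and cHet_1 stands lowest. Its fold change was 1.25 ± 0.69 (95% interval -0.35 to 2.85), and 0.26 without cHet_1. As a share of phosphofructokinase FPKM, Pfkl was 48.3% and 50.1% in cKO, against 59.5% and 74.0% in cHet (exact permutation p = 0.333, the smallest possible). By scaled counts the Pfkl share was 51.8% and 45.6% in cKO, against 62.6% and 62.5% in cHet. The Pfkp share of FPKM overlapped, at 15.4% and 18.6% in cKO and 14.3% and 18.3% in cHet.

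Aldoa, the main aldolase and the upper gene with the highest FPKM averaged over the 4 libraries, had 149.1 and 353.9 FPKM in cKO_0 and cKO_1, against 202.7 and 251.4 FPKM in cHet_0 and cHet_1. The 2 cKO libraries stood on either side of both cHet libraries, and in scaled counts (14250 and 34610 in cKO, 19610 and 23700 in cHet) the fold change was 0.04 (95% interval -0.87 to 0.96) and -0.06 after median-of-ratios rescaling. Its relative Aldoc was low, at 238.1 and 3.404 scaled counts in cKO_0 and cKO_1, against 273.7 and 2.093 in cHet_0 and cHet_1, so that it was low in both libraries numbered 1. The hexokinases trap glucose in the cell. Hk1 made up 89.6% and 88.9% of hexokinase FPKM in cKO, against 93.3% and 89.2% in cHet, and neither Hk1 (7988 and 14080 scaled counts in cKO, 10270 and 9738 in cHet) nor the inducible Hk2 (1239 and 3360 in cKO, 974.1 and 2428 in cHet) separated the groups. Glucose enters by the transporters Slc2a1 and Slc2a3. Slc2a1, the higher per length, spanned 951.3 and 4253 scaled counts in cKO, against 1717 and 2556 in cHet, or 5.656 and 21.52 FPKM in cKO and 9.920 and 13.07 FPKM in cHet. Slc2a3 had 1211 and 1928 scaled counts in cKO_0 and cKO_1, against 842.9 and 14.65 in cHet_0 and cHet_1. That last value rests on 14 reads, against 1041 in cHet_0, and the fold change of 3.65 ± 1.97 (95% interval -0.89 to 8.19) was 0.86 without it. Slc2a3 was the only 1 of the 36 tested members (2.78%) below 20 in cHet_1 with at least 200 in each other library, against 5.59% of all genes.

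Of the 5 genes of lower glycolysis, 4 fold changes were above 0 under the deposited and both alternative scalings, and Pgam1 was below. Pgam1 (chr19:41911923-41918660, plus strand), phosphoglycerate mutase, had 14200 and 19340 scaled counts in cKO_0 and cKO_1, against 28890 and 23780 in cHet_0 and cHet_1. All cKO values were below all cHet values, by a fold change of -0.66 ± 0.26 (95% interval -1.26 to -0.06; limma adjusted p = 0.913). Without cKO_0 the value was -0.44. In FPKM the order was the same, 119.8 and 104.5 in cKO against 242.8 and 121.1 in cHet. Reads of this gene are uncertain, since 41.5% of its 50-base stretches recur in transcripts of 4 other genes.

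Gapdh, glyceraldehyde-3-phosphate dehydrogenase, had the highest FPKM of the lower genes averaged over the 4 libraries, though not over the cHet libraries alone, where Pgam1 was higher, at 179.1 and 200.6 in cKO and 164.1 and 133.9 in cHet. In scaled counts it had 14100 and 14390 in cKO_0 and cKO_1, against 13160 and 9805 in cHet_0 and cHet_1. The cKO pair was tight and above cHet, with a fold change of 0.33 ± 0.27 (95% interval -0.29 to 0.94), and 0.11 without cHet_1. Copies of its sequence are extensive: 82.5% of Gapdh 50-base stretches occur in transcripts of 218 other genes, and for Eno1 and Pgk1 the shares were 72.2% and 68.0%. Eno2, the enolase best known from neurons, had 1667 and 1913 in cKO_0 and cKO_1, against 1441 and 68.02 in cHet_0 and cHet_1. The fold change of 2.48 ± 1.49 (95% interval -0.95 to 5.91) came to 0.31 without cHet_1. Eno2 FPKM overlapped, at 9.46 and 7.549 in cKO and 8.088 and 0.2324 in cHet. Eno1, the general enolase, overlapped (2689 and 7540 in cKO, 4002 and 3570 in cHet), as did Pgk1 (6279 and 6047 in cKO, 6962 and 4329 in cHet). Pyruvate kinase, listed under Pkm2 and not among the 37, followed in FPKM with 237.9 and 341.5 in cKO_0 and cKO_1 and 263.9 and 215.1 in cHet_0 and cHet_1, overlapping between groups.

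The kinases Pdk1 and Pdk3 had lower scaled counts in each cKO library than in each cHet library, with fold changes below 0 under all 3 scalings, and neither passed the test. The other pyruvate dehydrogenase kinases, which are not among the 37, did not all share this: Pdk2 had 8530 and 3967 scaled counts in cKO, against 5996 and 3498 in cHet (fold change 0.34), overlapping, and Pdk4 had 2637 and 1612 in cKO, against 2657 and 3457 in cHet (fold change -0.55). Pdk2 was the highest of the kinases per length, at 56.21 and 25.22 FPKM in cKO and 38.61 and 21.94 FPKM in cHet. Pdk3 (chrX:93764607-93832201, minus strand) encodes an inhibitor of pyruvate dehydrogenase. It had 2506 and 3226 scaled counts in cKO_0 and cKO_1, against 4967 and 5444 in cHet_0 and cHet_1. The gap between groups was wider than that inside either, with a fold change of -0.87 ± 0.38 (95% interval -1.76 to 0.02; limma adjusted p = 0.913), and the value stayed between -1.05 and -0.69 with any 1 library left out. Pdk1, the kinase best known as a HIF target, had 2508 and 2470 in cKO, against 2969 and 4075 in cHet, a fold change of -0.48 ± 0.44 (95% interval -1.50 to 0.54) and -0.25 without cHet_1. Together Pdk1 and Pdk3 took 0.00720% and 0.00806% of scaled counts in cKO, against 0.0114% and 0.0134% in cHet (exact permutation p = 0.333, the smallest possible). Pdk3 FPKM overlapped between groups, at 19.11 and 12.01 in cKO_0 and cKO_1 and 38.54 and 17.83 in cHet_0 and cHet_1. Pdk1 FPKM overlapped too, at 7.076 and 2.782 in cKO and 8.577 and 4.329 in cHet.

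Of the 4 HIF and sensor genes, 2 fold changes were above 0 as deposited and 1 after median-of-ratios or TMM rescaling. Hif1a, which encodes the inducible alpha subunit, had 12460 and 14190 scaled counts in cKO, against 14320 and 15660 in cHet. Both cKO values were below both cHet values by a narrow margin, with a fold change of -0.17 ± 0.25 (95% interval -0.74 to 0.40). HIF activity is set largely at the protein level, which these data do not measure. Hif1a FPKM was 37.97 and 13.07 in cKO_0 and cKO_1, against 45.23 and 11.72 in cHet_0 and cHet_1, split by library number and not by group. Epas1, encoding HIF-2 alpha, varied within groups, at 161.6 and 1577 scaled counts in cKO and 414.6 and 688.6 in cHet. Egln1, the main prolyl hydroxylase acting on HIF, had 7203 and 7984 in cKO_0 and cKO_1, against 6215 and 3153 in cHet_0 and cHet_1. Both cKO libraries were above, by a fold change of 0.78 ± 0.40 (95% interval -0.14 to 1.69), and 0.29 without cHet_1. Egln1 FPKM overlapped, at 32.19 and 21.74 in cKO and 27.39 and 8.247 in cHet. Egln3, a hydroxylase that HIF itself induces, overlapped, at 2659 and 1536 in cKO and 1775 and 2094 in cHet.

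Of the other 11 hypoxia-induced genes 10 were tested, and 0 passed: 7 fold changes were above 0 as deposited and 5 after median-of-ratios or TMM rescaling, and for 9 the groups overlapped. Vegfa, the vascular growth factor, had 5283 and 9398 scaled counts in cKO_0 and cKO_1, against 5701 and 2745 in cHet_0 and cHet_1. The values of cKO_0 and cHet_0 were close, and the fold change was 0.83 ± 0.46 (95% interval -0.24 to 1.90), and 0.31 without cHet_1. Ndrg1, a stress-response gene with the highest FPKM of these genes averaged over the 4 libraries, though not over the cKO libraries alone, had 2465 and 7656 scaled counts in cKO, against 6612 and 10130 in cHet. The cKO_0 value was the lowest, and the fold change of -0.91 ± 0.53 (95% interval -2.14 to 0.31) was -0.10 without it. Ndrg1 FPKM was 12.50 and 27.03 in cKO, against 33.37 and 34.02 in cHet, without overlap.

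Car9, the tumour-associated carbonic anhydrase that HIF induces strongly, was low. It had 130.4 and 247.4 scaled counts in cKO, against 212.1 and 1.046 in cHet, the last being 1 read. The fold change of 2.63 ± 2.69 (SE, limma adjusted p = 0.917) was -0.24 without cHet_1. Adm, adrenomedullin, was at 0 and 347.2 in cKO_0 and cKO_1, against 68.83 and 1.046 in cHet_0 and cHet_1. Ankrd37, an ankyrin repeat gene used as a hypoxia marker, had 9.696 and 81.70 in cKO, or 9 and 72 reads, and was at 0 in both cHet libraries. It was not tested, and with so few reads in 1 of the cKO libraries no fold is given. Ddit4, an mTOR inhibitor, had 1625 and 1720 in cKO, against 1436 and 793.2 in cHet, not overlapping (fold change 0.65, and 0.22 without cHet_1). The mitophagy receptors Bnip3 (3096 and 1962 in cKO, 2387 and 3673 in cHet) and Bnip3l (8252 and 6526 in cKO, 7998 and 6329 in cHet) did not separate. Neither did the oxidoreductase Ero1l (2989 and 1789 in cKO, 3394 and 2763 in cHet), the histone demethylase Kdm3a (4579 and 2979 in cKO, 3578 and 3483 in cHet) or the mitochondrial protein Higd1a (1263 and 2333 in cKO, 1577 and 1553 in cHet).

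Many of these values turned on 1 library. Of the 37 genes, cHet_1 was the lowest library for 15, a share slightly below the 43.3% of all genes. The lowest library was cKO_0 for 13 of the 37, a larger share than the 19.3% of all genes. The highest was cKO_1 for 19, a larger share than the 27.0% of all genes. Leaving out cHet_0 gave 4 called members, Eno2, Gpi1, Pfkm and Slc2a3, each higher in cKO than in the lone cHet_1, beside 1061 genes called higher and 78 lower over all genes. Leaving out any other library gave 0 called members. The markers of other cells also differed by library. As background, both cKO libraries lay above both cHet libraries for 18% of all tested genes, and below them for 14.2%. Endothelial markers summed to 0.0058% and 0.0252% of scaled counts in cKO_0 and cKO_1, against 0.0039% and 0.0099% in cHet_0 and cHet_1; 4 of the 10 were above in both cKO libraries, Emcn was at 0 in cKO_0 and Pecam1 in cHet_0. Schwann cell markers were at 0.0098% and 0.0321% in cKO, against 0.0043% and 0.0010% in cHet, with 4 of 6 above in both cKO libraries and none at 0. Macrophage markers were at 0.0023% and 0.0174% in cKO, against 0.0025% and 0.0108% in cHet, with 2 of 10 above and 1 below in both cKO libraries, Emr1 at 0 in cKO_0, and Ptprc and Fcer1g at 0 in cHet_1. Odontoblast markers were at 0.0241% and 0.0356% in cKO, against 0.1449% and 0.1391% in cHet, with 3 of 5 below in both cKO libraries. Dental epithelial markers were at 1.39% and 3.92% in cKO, against 0.840% and 2.09% in cHet, with none of the 10 at 0 and 1 below in both cKO libraries. Genes that rise when tissue is dissociated summed to 1.60% and 2.55% in cKO, against 1.51% and 1.51% in cHet. These are immediate early genes and the chaperones Hspa1a, Hspa1b and Dnajb1, and 7 of the 18 were above in both cKO libraries. Their part in the differences of glycolysis genes was not tested. In bulk RNA fewer cells of a type and less RNA per cell cannot be told apart.

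The 2 deposited tables are related differently in the libraries numbered 0 and 1. For 9933 genes with at least 100 scaled counts in all libraries, the ratio of FPKM to scaled count differed between cKO_0 and cHet_0 by a median factor of 1.02 and between cKO_1 and cHet_1 by 1.07, but by 1.39 to 1.51 between libraries of unlike number. Among the 35 members above 0 in all libraries, this ratio varied over 2-fold across libraries for 11. The median of largest over smallest was 1.6. Of the 9933 genes, 4267 varied over 2-fold, with a median of 1.79. The 35 were not held to 100 scaled counts, and Slc2a3, Eno2, Car9, Aldoc and Slc16a3 fell below that in some library. Hif1a had 3.05 and 0.921 FPKM per 1000 scaled counts in cKO_0 and cKO_1, against 3.16 and 0.748 in cHet_0 and cHet_1. Ldhb, by contrast, had 11.8 and 12.3 in cKO and 11.7 and 11.8 in cHet. For genes such as Hif1a and Ero1l the 2 tables thus give differences of unlike size between libraries of unlike number. Which table is nearer to the transcript level cannot be told from these values. The labels do not say what the numbers stand for, and the cause was not tested.

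**Figure D4:**
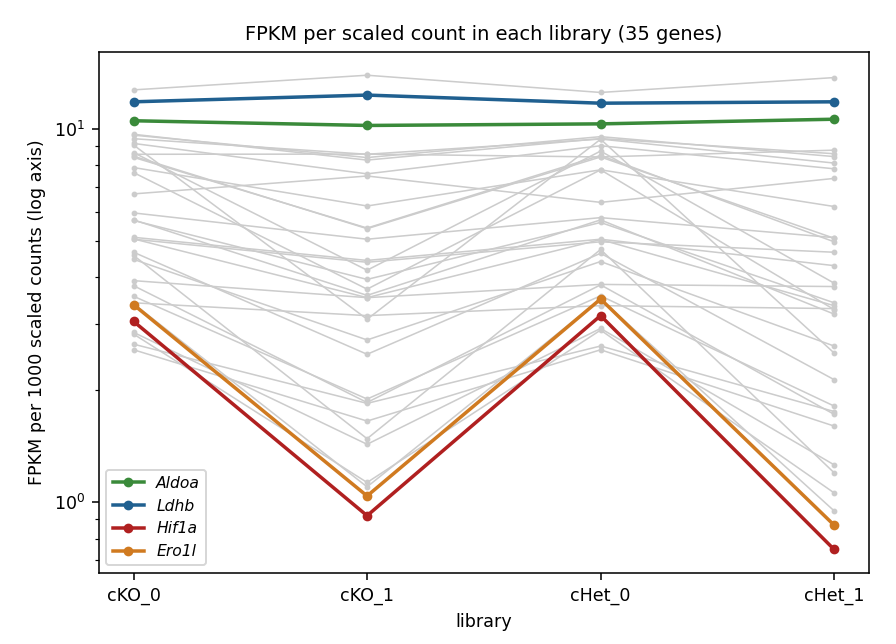
FPKM per 1000 scaled counts (log axis) in each library, each line 1 of 35 genes, with 4 in colour. Hif1a and Ero1l lie higher in both libraries numbered 0 than in those numbered 1, and Aldoa and Ldhb stay near level.

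Differences of log2(scaled count + 3), as deposited, were therefore also taken within each number. Between cKO_0 and cHet_0 the members' median log2 difference was -0.17 (all genes 0.01), and 15 of 36 were higher in cKO (41.7%, all genes 51.0%). Between cKO_1 and cHet_1 it was 0.54 (all genes 0.21), and 24 of 36 were higher (66.7%, all genes 56.6%). In both comparisons cKO was higher for 11 genes (30.6%, background 30%) and lower for 8 (22.2%, background 22.1%), and 17 had opposite signs. Of the 14 glycolytic enzymes, 6 were higher in both, 2 were lower in both and 6 had opposite signs. The sizes differed by number for the 4 genes of lowest p, whose signs are fixed by groups that do not overlap: Ldhb differed by 0.32 and 1.10, Tpi1 by 0.21 and 0.95, Pgam1 by -1.02 and -0.30, and Pdk3 by -0.99 and -0.75, each number 0 first. Ldha differed by -0.45 and 0.41, Aldoa by -0.46 and 0.55, and Slc2a1 by -0.85 and 0.73, with opposite signs.

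**Figure D5:**
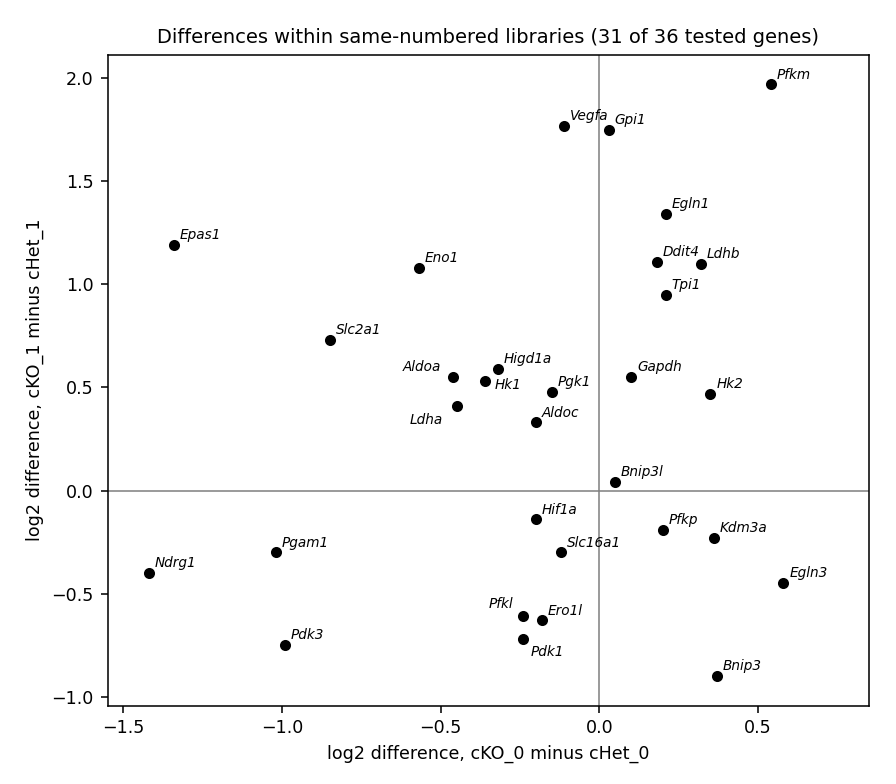
Log2 difference of log2(scaled count + 3), cKO_1 minus cHet_1 (vertical) against cKO_0 minus cHet_0 (horizontal), for 31 of the 36 tested genes; the 5 off scale are Slc2a3, Eno2, Slc16a3, Adm and Car9. Genes fill all 4 quadrants, with Pdk3, Pgam1 and Ndrg1 at the lower left and Ldhb, Tpi1 and Pfkm at the upper right.

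In a wider list of 88 other genes of these pathways, 2 collagen hydroxylases had the lowest p. Of 79 tested, 38 fold changes were above 0 and 41 below as deposited, with a median of -0.01, and 0 passed the test. Unadjusted p was below 0.05 for 2 on the higher side and 3 on the lower. In scaled counts both cKO libraries were above both cHet libraries for 10 (12.7%, background 18%) and below for 16 (20.3%, background 14.2%). By FPKM 4 of the 79 lay above (background 11.5%) and 7 below (background 8.73%). Plod2, a lysyl hydroxylase of collagen that hypoxia induces, had 8200 and 11380 scaled counts in cKO_0 and cKO_1, against 26940 and 31500 in cHet_0 and cHet_1. Every cKO value was below every cHet value, by a fold change of -1.59 ± 0.27 (95% interval -2.21 to -0.98; limma adjusted p = 0.913). P4ha2, a collagen prolyl hydroxylase subunit, had 2339 and 6434 in cKO, against 15460 and 19890 in cHet, a fold change of -2.18 ± 0.46 (95% interval -3.25 to -1.11; limma adjusted p = 0.913). Its relative P4ha1 had 4866 and 5358 in cKO, against 9500 and 6527 in cHet (fold change -0.62). The carbonic anhydrase Car12 had 582.9 and 1260 in cKO, against 2224 and 4123 in cHet (fold change -1.82). These 4 did not overlap between groups in scaled counts. In FPKM P4ha1 overlapped, at 17.4 and 7.575 in cKO and 34.94 and 8.269 in cHet. Of the 10 follicle and ligament markers 6 were lower in both cKO libraries too (background 14.2%), and their part in this was not tested.

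On the higher side of the wider list, Igfbp3, a carrier of insulin-like growth factors, had 212900 and 194100 scaled counts in cKO_0 and cKO_1, against 142900 and 108300 in cHet_0 and cHet_1. The groups were apart by a fold change of 0.71 ± 0.27 (95% interval 0.08 to 1.34), although its FPKM overlapped, at 1356 and 837.8 in cKO and 904.8 and 407.6 in cHet. Hkdc1, a hexokinase-like gene, had 145.4 and 367.7 in cKO, against 0.8097 and 3.140 in cHet, where the cHet values are 1 and 3 reads. Ppp1r3c, which targets a phosphatase to glycogen, had 776.8 and 1109 in cKO, against 240.5 and 5.233 in cHet. Mxi1, a MYC antagonist, had 6763 and 7551 in cKO, against 6043 and 2413 in cHet (fold change 0.90), with cHet_1 again the lowest.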

How the data were processed

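RNA of sorted tdTomato-positive cells was isolated with a PicoPure kit and amplified with SMART-Seq v4, and libraries were made with Nextera XT, per the labels' protocols. The submitters' processing notes name build mm10 and, without their roles, HTSeq, DESeq2, Cuffdiff, Cufflinks, FastQC, Bowtie2 (2.2.1) and TopHat2 (2.0.13). The sources used here do not say whether counting used strand.

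The authors deposited scaled counts, a signal unit, whose values behave as gene counts divided by 1 factor per library; the sources used here do not state how it was set. Between 96.6% and 99.0% of values were whole multiples of 1 step within 0.1 of a read and the rest were not, so no count test was run. The authors also deposited FPKM values, relative to transcript length and library size. A further 16 columns in 4 tables match no label and were not used. Columns count libraries from 0 and titles from 1, so columns carry a group only. The labels do not say that the 2 samples of a group came from separate animals, and any p-value here reflects only how far these libraries spread, in part perhaps technically.

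The test was limma (3.58.1, in R 4.3.3) with its trend option, on log2(scaled count + 3) of the 14297 genes reaching 10 scaled counts in at least 2 libraries. Two-sided p-values were adjusted by Benjamini-Hochberg over all of them, with 0.05 as threshold, and the procedure was tested on simulated data. The simulation held no library with many low genes like cHet_1, so it does not show how the test performs on these data. Standard errors are limma's moderated ones, and fold changes understate those of low genes. Alternatives changed the pseudocount, filter, scaling, unit, library weights, replicate block and libraries included. Reads of amplified cDNA are not independent molecules. Coordinates are 1-based, from GENCODE vM21. Values are given for the 15 members of lowest p, the highest by FPKM of each role, those at 0, and the 4 lowest-p wider-list genes in each direction, and any other member may be named. The result of 1 marker list is not reported here. The members and lists were chosen with earlier results of these data known. Promoter windows were the RefSeq ones without the bases after the start site.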

Additional observations from a re-analysis of the deposited data

How the results depend on the processing

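The number of called genes was 0 in each direction under pseudocounts of 1 and 10, no filter, a mean of at least 1000 scaled counts, median-of-ratios and TMM rescaling and library weights. On log2(FPKM + 1) it was 3 higher and 4 lower in cKO, and on log2(FPKM + 0.1) 1 and 1. With 1 library left out it ranged from 0 to 1061 higher and from 0 to 78 lower, a lone library being assumed to vary like the other group; the called members ranged from 0 to 4. The members' median fold change, 0.08, ranged from -0.02 to 0.53 with 1 library left out, highest without cKO_0, and the number above 0 from 17 to 23. The Ldha share difference was -11.6 percentage points by FPKM, -10.6 by scaled counts and -12.6 to -10.7 with 1 library left out. Deviations of same-numbered libraries from their group means correlated at 0.05 in log scaled counts, and the main fit does not pair samples by number. The ratio of FPKM to scaled count did go with the number, as described above. With the number as a replicate block 0 genes were called in either direction, and 345 higher and 261 lower had an unadjusted p below 0.05, against 220 and 213 without it.

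Some fold changes reversed sign. Median-of-ratios and TMM rescaling gave -0.02 and -0.0038 for Hk1, -0.10 and -0.08 for Pfkp, -0.06 and -0.05 for Aldoa, -0.04 and -0.02 for Egln3, -0.06 and -0.04 for Bnip3l and -0.04 and -0.02 for Kdm3a. Aldoc was -0.02 with a pseudocount of 10, -0.06 on log2(FPKM + 1) and -0.03 on log2(FPKM + 0.1). On log2(FPKM + 1) and log2(FPKM + 0.1), Ldha was 0.02 and 0.02, and Epas1 0.14 and 0.02. With 1 library left out the fold changes that reversed ranged from -1.14 to 1.02 for Slc2a1, -0.32 to 0.49 for Hk1, -0.31 to 1.13 for Hk2, -0.51 to 0.52 for Pfkp, -0.60 to 0.68 for Aldoa, -2.82 to 2.95 for Aldoc, -0.18 to 0.51 for Pgk1, -0.49 to 1.0 for Eno1 and -0.25 to 0.20 for Ldha. The others that did so ranged from -0.46 to 0.04 for Slc16a1, -1.95 to 4.65 for Slc16a3, -1.71 to 1.56 for Epas1, -0.33 to 0.46 for Egln3, -0.59 to 0.06 for Bnip3, -0.12 to 0.21 for Bnip3l, -2.51 to 4.36 for Adm, -0.24 to 5.50 for Car9, -0.24 to 0.37 for Kdm3a and -0.31 to 0.58 for Higd1a. The cause was not tested. Over all alternatives 50 single-gene fold changes reversed, 4 passed the threshold and 442 did neither. Car9, Adm, Aldoc and Slc16a3 had 6 reads or fewer in some library.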
